A study of Mus musculus with 2 samples.

Results

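The genes described here encode the nuclear parts of 3 complexes of the inner mitochondrial membrane, complex II, complex III and complex V, together with their assembly factors, the ATP synthase inhibitor and cytochrome c. They were found by gene symbol and by having at least 1 protein-coding transcript: 51 annotated genes carried such a symbol, 44 had a protein-coding transcript and were kept, and 7 pseudogene entries were left out. The 44 stand among 21888 nuclear genes with a protein-coding transcript and 55450 annotated genes in all. They comprised 4 subunits of complex II, 9 of complex III and 16 of complex V, 11 assembly factors or inhibitors, 2 cytochromes c and 2 further entries, Atp5s and a read-through entry that shares the symbol Atp5o and overlaps Donson. The data are RNA-seq of total RNA, with ribosomal RNA reduced, from the hearts of 2 untreated male B6CASTF1/J mice aged 2 months. These are first-generation hybrids between the B6 and CAST strains, and the labels name no transgene, treatment or second group. Each heart gave 1 library from 300 ng of RNA, called replicate 1 and replicate 2 after the labels. Both samples carry 1 donor entry but different male numbers, and they are taken here as 2 animals.

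Complex II, succinate dehydrogenase, oxidises succinate in the tricarboxylic acid cycle and passes electrons to ubiquinone, and all of its subunits are encoded in the nucleus. Complex III passes electrons from ubiquinol to cytochrome c, a small soluble protein that carries them on to cytochrome c oxidase and that triggers caspase activation when it leaves the mitochondrion. Complex V, the ATP synthase, lets protons flow back through a ring of c subunits, whose turning drives the catalytic F1 head. Heart muscle, which beats without pause, depends on these complexes for most of its ATP. One catalytic subunit of complex III and a pair of membrane subunits of complex V are encoded in mitochondrial DNA.

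The levels of some members depend on near-identical copies elsewhere in the genome, so parts of 2 such families are shown first. Subunit c is encoded by 3 genes, Atp5g1, Atp5g2 and Atp5g3, whose proteins differ in the leader peptide that is cut off on import and not in the mature protein. Over the last 237 coding bases with the stop codon, which encode the same protein in the 3 genes, Atp5g1 and Atp5g2 differed at 36 bases, Atp5g1 and Atp5g3 at 51, and Atp5g2 and Atp5g3 at 54. Gm10175, annotated as a transcribed processed pseudogene, had 0 differences from Atp5g2 over the same 237 bases. The first 120 of those bases are given below, 5′ to 3′, from the GENCODE M21 transcripts. Capitals mark positions at which the 3 genes are not all alike, 33 of the 120. On mm10 they lie on the minus strand at chr11:96073525-96073644 (1 exon, Atp5g1), chr15:102665056-102665175 (1 exon, Atp5g2), chr7:23946909-23947028 (1 exon, Gm10175) and chr2:73909186-73909305 (1 exon, Atp5g3).
Atp5g1: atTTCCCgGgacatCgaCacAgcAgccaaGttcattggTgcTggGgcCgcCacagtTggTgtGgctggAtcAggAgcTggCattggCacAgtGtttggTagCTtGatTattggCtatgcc
Atp5g2: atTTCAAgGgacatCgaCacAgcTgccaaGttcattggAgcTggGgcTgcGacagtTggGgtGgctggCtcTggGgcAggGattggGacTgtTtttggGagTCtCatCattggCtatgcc
Gm10175: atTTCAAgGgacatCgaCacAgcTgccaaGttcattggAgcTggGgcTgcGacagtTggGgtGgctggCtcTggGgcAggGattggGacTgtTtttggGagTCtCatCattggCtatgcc
Atp5g3: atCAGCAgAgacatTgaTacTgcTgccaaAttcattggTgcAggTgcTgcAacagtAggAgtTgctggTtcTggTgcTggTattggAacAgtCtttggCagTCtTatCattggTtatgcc

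The somatic cytochrome c gene Cycs has copies of the same kind. Over its coding region of 318 bases with the stop codon, Gm10053 had 0 differences and Gm10108 had 2, while the testis gene Cyct had 76. Gm10053 is annotated as protein-coding and Gm10108 as a processed pseudogene. The first 120 coding bases follow, with capitals at bases that differ from Cycs, 2 in Gm10108 and 23 in Cyct. Their mm10 positions are chr6:50565541-50565660 on the minus strand for Cycs, chr19:24875753-24875872 on the plus strand for Gm10053, chr5:13121647-13121766 on the minus strand for Gm10108 and chr2:76356129-76356248 on the minus strand for Cyct.
Cycs: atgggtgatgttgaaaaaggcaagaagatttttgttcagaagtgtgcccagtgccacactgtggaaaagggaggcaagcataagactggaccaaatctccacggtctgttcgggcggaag
Gm10053: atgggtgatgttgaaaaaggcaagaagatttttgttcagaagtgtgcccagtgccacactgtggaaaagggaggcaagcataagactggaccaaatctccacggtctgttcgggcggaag
Gm10108: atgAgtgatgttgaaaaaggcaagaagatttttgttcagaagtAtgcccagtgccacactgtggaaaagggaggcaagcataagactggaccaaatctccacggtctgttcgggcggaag
Cyct: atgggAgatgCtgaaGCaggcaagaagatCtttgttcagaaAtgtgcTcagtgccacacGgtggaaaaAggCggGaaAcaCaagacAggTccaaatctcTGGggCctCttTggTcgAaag

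The library of replicate 1 held 39177981 expected counts and that of replicate 2 held 44544839. Levels are in TPM, a unit that divides counts by transcript length and scales each library to the same total, from the deposited gene table unless the second quantifier is named, and errors are SD over n = 2 mice. No p-values are given, since the labels give 1 group of 2 mice with 1 library each. Even for genes set side by side within each mouse, an exact paired 2-sided test on 2 mice cannot go below 0.5. Marker genes went with the labelled tissue: the 5 cardiomyocyte markers stood between 3423 and 8071 TPM, and the liver gene Alb, the lung gene Sftpc and the fast skeletal muscle genes Myh2 and Myh4 were listed at 0. The summed level of 3 red cell genes was 13711 TPM in replicate 1 and 4292 in replicate 2, and its part in the levels below was not tested. In these bulk samples a difference in the number of cells of a type and in RNA per cell cannot be told apart.

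The 44 genes together held 5.73 ± 0.201% of the TPM of nuclear protein-coding genes. Of them, 42 reached 1 TPM in both mice, 17 were among the first 100 nuclear protein-coding genes and 27 among the first 200. Complex V subunits held 3.60 ± 0.125%, complex III subunits 1.53 ± 0.0494%, complex II subunits 0.459 ± 0.0215% and the 11 assembly factors and inhibitors 0.125 ± 0.00425%. The 37 complex I subunits held 3.57 ± 0.129% and the 18 cytochrome c oxidase subunits 3.07 ± 0.146%. Without a correction for length, in expected counts, the 44 genes held 2.78 ± 0.0825%.

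The 29 subunits and the factors that assemble them stood at different levels. The median subunit was at 597 ± 34.8 TPM and the median assembly factor or inhibitor at 29.2 ± 0.933, a ratio of 20.4 ± 0.539. By the gene table, 28 of the 29 subunits were above each of the 11 assembly factors and inhibitors, the exception being Atp5g2. With the second quantifier all 29 were. Detected nuclear protein-coding genes, 10948 in number, had a median of 8.68 ± 0.205 TPM. By the gene table the medians of the 3 complexes were 481 ± 32.7 TPM for complex II, 601 ± 30.5 for complex III and 636 ± 18.0 for complex V, and the ranges of their subunits overlapped. With the second quantifier they lay farther apart, at 413 ± 24.3, 874 ± 35.9 and 1011 ± 58.95 TPM. The median of complex I subunits was 320.1 ± 18.9 TPM and that of cytochrome c oxidase subunits 624 ± 22.5; no test between gene sets was run.

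**Figure D1:**
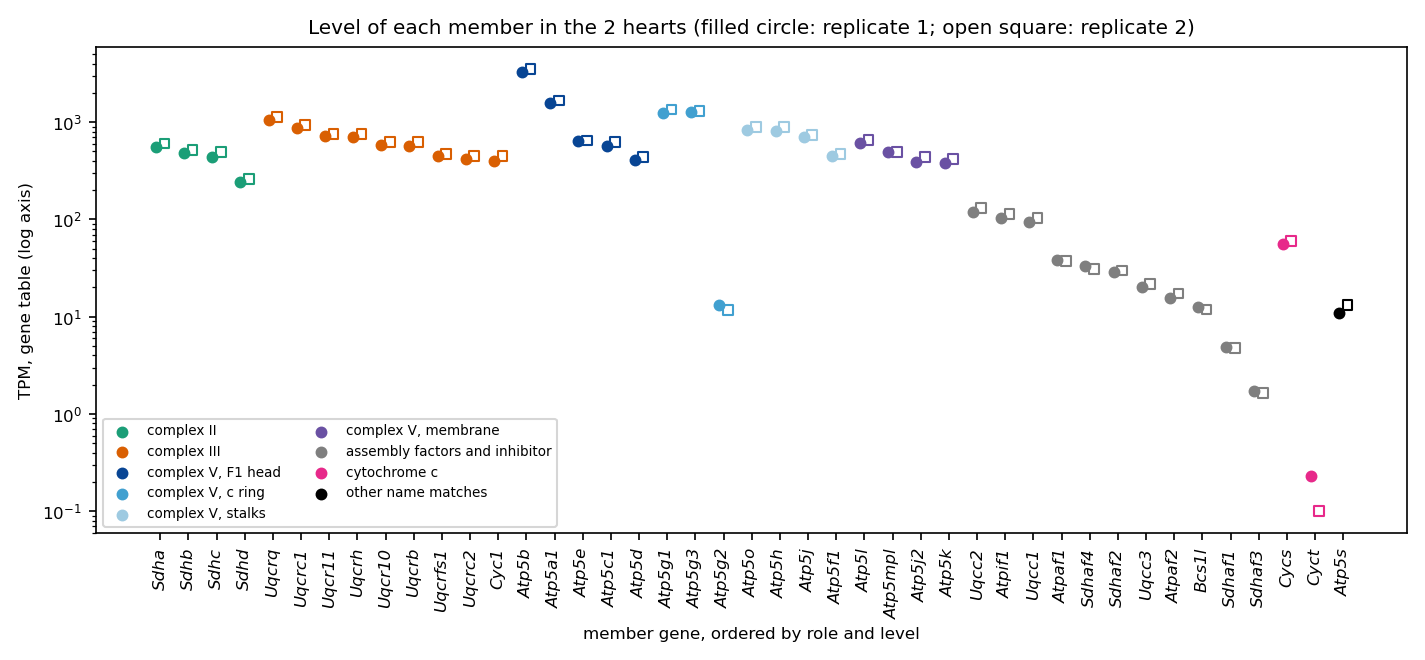
Level of each member in TPM on a log axis, with a filled circle for replicate 1 and an open square for replicate 2, ordered by role and coloured by complex. Subunits lie between 241 and 3509.7 TPM except Atp5g2 at 13.2 and 11.7, and assembly factors and inhibitors between 1.63 and 131; the read-through entry, listed at 0, is not drawn.

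In complex II the catalytic pair stood above the smaller membrane anchor Sdhd. Sdha, the flavoprotein that binds succinate, was at 558 and 602 TPM in replicates 1 and 2. Sdhb, which carries the iron-sulfur clusters, was at 476 and 515. Sdhc, the first of the membrane anchors that hold the ubiquinone site, was at 439 and 493. Sdhd, the other anchor, was at 241 and 258 TPM, the lowest of the 4 in both mice. Sdha exceeded Sdhd by 2.32 ± 0.0151-fold and Sdhb by 1.17 ± 0.000793-fold, although the complex holds these subunits in equal number. The order of the first 3 depended on the quantifier. With the second one Sdhb led at 660.5 ± 35.8 TPM and Sdha followed at 521 ± 27.4. Sdhc was at 305 ± 21.2 and Sdhd was again last at 257 ± 12.9. With the first quantifier, that of the gene table, the 298-base transcript Sdhc-203 was at 188 TPM, and with the second at 0.223. The longer Sdhc-201 was at 242 and 251 TPM.

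Complex III subunits spanned 2.57-fold, with the small subunits above the redox proteins by the gene table. Uqcrq, a small subunit next to cytochrome b, was highest at 1054 and 1121 TPM. Uqcrc1, the first core protein, was at 873 and 928, and Uqcrc2, the second core protein, at 413 and 446. The core proteins therefore differed by 2.10 ± 0.0244-fold (1.67 ± 0.00509-fold with the second quantifier). Among the further small subunits Uqcr11 was at 724 and 759 TPM, the hinge protein Uqcrh at 709 and 755, Uqcr10 at 579.7 and 619.7 and Uqcrb at 572 and 623. Uqcrfs1, the Rieske iron-sulfur protein that takes electrons from ubiquinol, was at 449 and 469. Cyc1, cytochrome c1, which hands them to cytochrome c, was lowest at 402 and 446 TPM. Uqcrc2 exceeded Cyc1 by only 1.01 ± 0.0188-fold, less than the spread between mice. Cyc1 did not keep its place with the second quantifier, where it stood at 838 ± 46.4 TPM and Uqcrfs1 was lowest at 507 ± 15.2. Of that Cyc1 level 27.4% lay on coding transcripts, against 100% for Uqcrfs1. The transcript Cyc1-202, annotated as a target of nonsense-mediated decay, was at 363 TPM and the coding Cyc1-201 at 226, so the change of place is not one of coding transcripts. Mt-Cytb, the mitochondrially encoded cytochrome b of the same complex, was at 15850 and 16456 TPM.

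In the F1 head of complex V the beta subunit led. Atp5b, the catalytic beta subunit, was at 3241 and 3509.7 TPM, ranked 13 and 10 among nuclear protein-coding genes, and was the most abundant member in both mice. Atp5a1, the alpha subunit, was at 1556 and 1669. The head holds alpha and beta in equal number. The transcript ratio of Atp5b to Atp5a1 was 2.09 ± 0.0144 (1.82 ± 0.00985 with the second quantifier and 1.23 ± 0.00565 in expected counts). This ratio takes in transcripts that are not coding. With the first quantifier the coding transcripts Atp5b-201 and Atp5a1-201 were at 2380 and 1587 TPM. The short processed transcripts Atp5b-206 and Atp5b-207 were at 504 and 475 TPM. The central stalk parts were lower. Atp5c1, the gamma subunit that turns inside the head, was at 571 and 622 TPM. Atp5d, the delta subunit, was at 407 and 441. Atp5e, the epsilon subunit, was at 635 and 647 by the gene table and at 1709 and 1724 with the second quantifier, which placed it next to Atp5a1.

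Subunits of the peripheral stalk, which keeps the head from turning, stood within 1.88-fold of each other. Atp5o, the oligomycin sensitivity conferring protein, was at 828 and 888 TPM, and Atp5h, subunit d, at 812 and 892. Atp5j, coupling factor 6, was at 699 and 732 and Atp5f1, subunit b, at 444 and 467. With the second quantifier Atp5h was the highest of the group at 1747 and 1912 TPM. The membrane subunits e, f and g, which join ATP synthase dimers, were of like level. Atp5l, subunit g, was at 611 and 651 TPM, Atp5j2, subunit f, at 391 and 436, and Atp5k, subunit e, at 381 and 418. Atp5mpl, a small proteolipid of the membrane part, was at 489 and 497. The mitochondrially encoded subunits mt-Atp6 and mt-Atp8 were at 15924 ± 1538 and 4936 ± 655 TPM, and with the second quantifier mt-Atp6 was at 33914 ± 2179 while mt-Atp8 was listed at 0 in both mice.

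By the gene table the 3 genes for subunit c were split between a nearly equal pair and Atp5g2, far below them. Both the equality of the pair and the level of Atp5g2 depended on the quantifier. Atp5g1 was at 1233 and 1349.7 TPM and Atp5g3 at 1264 and 1312. The ratio of Atp5g3 to Atp5g1 was 0.999 ± 0.0375, above 1 in replicate 1 and below 1 in replicate 2. It was 1.29 ± 0.0686 with the second quantifier and 1.21 ± 0.0440 in expected counts. Atp5g2 was at 13.2 and 11.7 TPM, on 258 and 260 expected counts. Of the TPM of the 3 genes, Atp5g1 held 49.8 ± 0.965%, Atp5g3 49.7 ± 0.902% and Atp5g2 0.483 ± 0.0627%. With the second quantifier Atp5g2 was at 325 and 348 TPM, 26.9 times its gene-table mean, and held 10.6 ± 0.157%, against 39.0 ± 1.10% for Atp5g1 and 50.4 ± 1.25% for Atp5g3.

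In the gene table a similar amount of TPM stood on a copy of Atp5g2. Gm10175 (chr7:23946646-23947290, minus strand), all of whose 31-base words occur in Atp5g2, was at 262 and 287 TPM in the gene table and at or near 0 with the second quantifier. Atp5g2 (chr15:102662864-102672352, minus strand) and its 2 copies together came to 287 ± 16.4 TPM in the gene table and 336 ± 16.3 with the second quantifier, a ratio of 1.17. The copies held 95.7% of the gene-table sum. Gm10039, a processed pseudogene with 92.9% of its words in Atp5g1, was at 118 and 109.6 TPM, 8.09% of the sum of Atp5g1 and its copy. With copies added, the shares of subunit c TPM were 47.1 ± 0.564% for Atp5g1, 9.63 ± 0.139% for Atp5g2 and 43.2 ± 0.702% for Atp5g3. The level of Atp5g2 alone is therefore uncertain in these tables.

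Cytochrome c showed the same dependence. Cycs (chr6:50562563-50566538, minus strand) was at 56.5 and 59.6 TPM in the gene table, and Cyc1, its electron donor, exceeded it by 7.30 ± 0.253-fold. With the second quantifier Cycs was at 632 and 682 TPM and Cyc1 exceeded it by 1.28 ± 0.00263-fold. In the gene table its copy Gm10053 (chr19:24875686-24876631, plus strand) was at 363 and 374 TPM and Gm10108 (chr5:13121448-13121766, minus strand) at 128 and 173; with the second quantifier Gm10053 was at 271 and 279.5 and Gm10108 at 0. Cycs and its 4 copies summed to 578 ± 41.6 TPM in the gene table, 89.95% of it on the copies, and to 932 ± 40.9 with the second quantifier, a ratio of 1.61.

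The 2 quantifiers differed on 1 transcript of Cycs. The 3123-base coding transcript Cycs-202 was at 53.7 and 58.7 TPM with the first and at 55.4 and 61.0 with the second. The 607-base transcript Cycs-201, annotated as a retained intron, was at 2.75 and 0.95 TPM with the first and at 577 and 621 with the second. With the second, 8.86% of the Cycs level and 27.4% of the Cyc1 level lay on coding transcripts. The ratio of Cyc1 to Cycs with that quantifier is therefore not one of coding transcripts. The testis form Cyct was at 0.23 and 0.10 TPM on 4 and 2 counts, a log2 ratio of -1.08 with a 95% counting interval from -4.70 to 1.57, and the testis genes Prm1, Prm2 and Tnp1 were listed at 0.

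**Figure D2:**
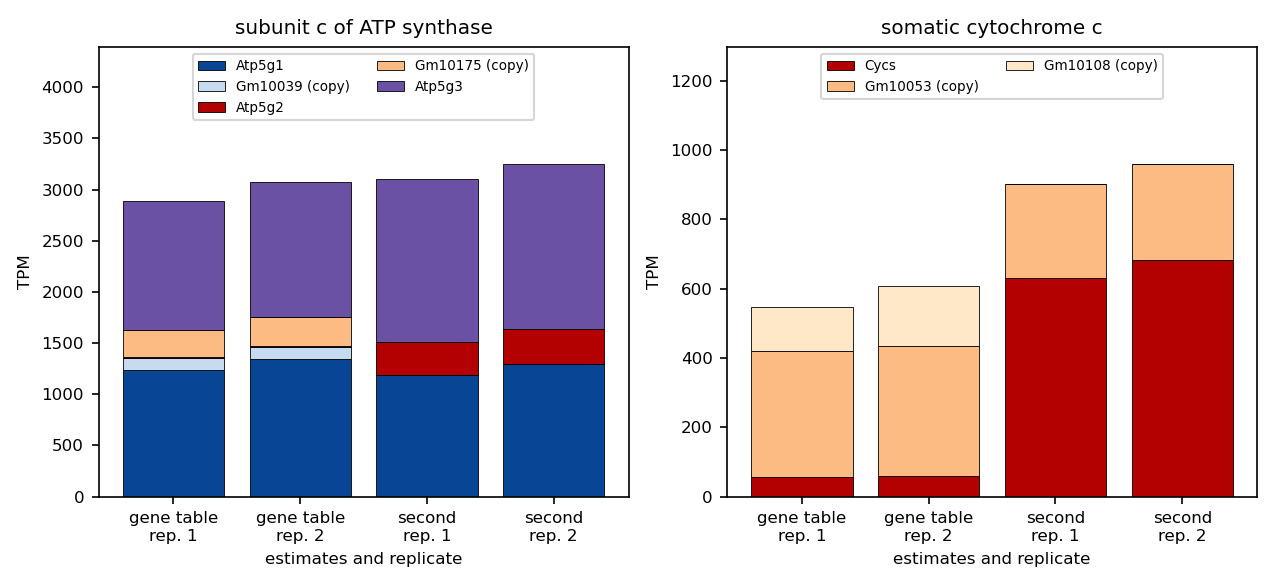
Stacked TPM of the subunit c genes and of somatic cytochrome c with their copies, in the gene table and with the second quantifier, for each replicate. Atp5g2 takes 13.2 and 11.7 TPM in the gene table and 325 and 348 with the second quantifier, and Cycs 56.5 and 59.6 against 632 and 682, while the copies Gm10175 and Gm10108 appear in the gene table only.

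Copies were looked for among all annotated transcripts, as genes with at least 50% of their 31-base words in a member, read in the direction of transcription. Such copies existed for 10 members, 19 copies in all, and 7 of the 19 reached 10 TPM in the gene table. Atp5l, subunit g, had 5 copies, of which Gm10221 was at 255 and 326 TPM in the gene table and at 0 with the second quantifier; Atp5l with its copies differed between quantifiers by 1.01-fold and Atp5l alone by 1.49-fold. Atp5h had Gm10250 at 257 and 281 TPM in the gene table, and adding it took the ratio of the quantifiers from 2.15 to 1.63. For Atpaf1, an F1 assembly factor, both quantifiers placed TPM on the copy Gm14117, 13.65 and 10.6 in the gene table and 12.5 and 9.53 with the second. The copies of Uqcrb, Uqcr11, Atp5f1 and Atp5j held under 1% of the sum with their member.

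Over all members the second quantifier gave the higher value for 39 and the lower for 5. The 39 include the read-through entry, at 0 in the gene table. Most of the 10948 detected nuclear protein-coding genes were higher with it too, with a median ratio of 1.15. Their exact share was not computed, so the 39 are not read as particular to the members. Of the 40 members at 10 TPM or more, 5 were at least 2-fold higher with it (Atp5g2, Cycs, Atp5e, Atp5h and Atp5j2) and 10 at least 1.5-fold, against 2.04% and 12.3% of 4953 nuclear protein-coding genes at the same level. Atp5j2 was at 810.5 and 913.5 TPM with it, 2.09 times its gene-table mean, and Atp5e 2.68 times; for these 2 genes no copy passed the limit of 50%. Sdhc moved the other way, at 0.653 times its gene-table mean. The median ratio of the 2 quantifiers was 1.29 for these members and 1.16 for all such genes.

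**Figure D3:**
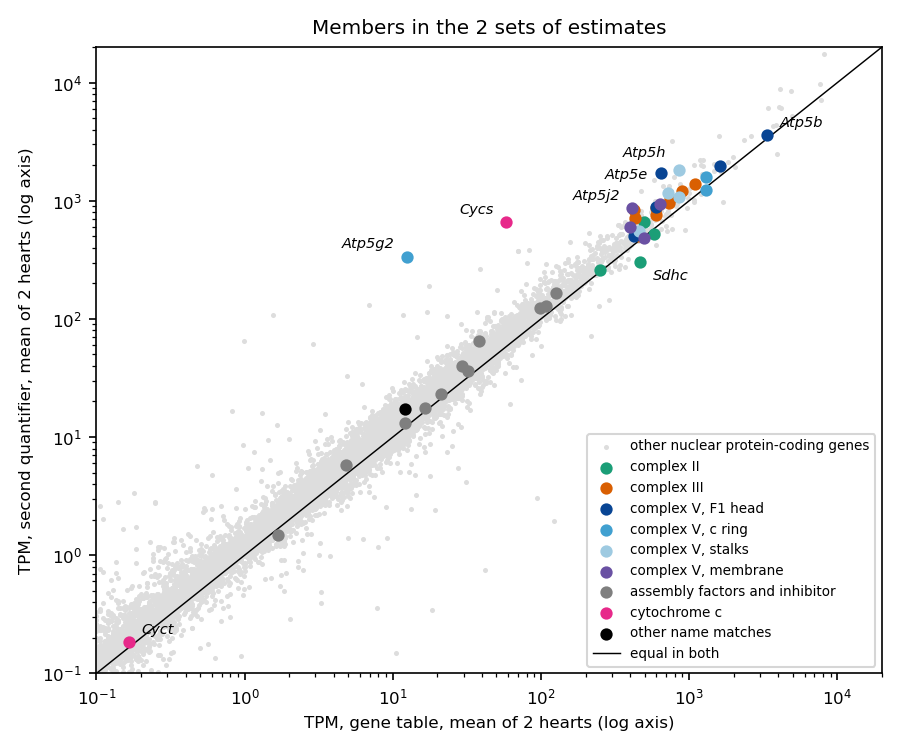
Mean TPM of 2 hearts in the gene table (x axis) against the second quantifier (y axis), both log axes, with members coloured by role and other nuclear protein-coding genes in grey; the line marks equal values. Atp5g2 and Cycs lie farthest above the line among members at 10 TPM or more, 26.9 and 11.3 times higher with the second quantifier.

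Assembly factors and the inhibitor had levels from 1.68 to 126 TPM on average. Atpif1, the inhibitor that stops ATP synthase from running backwards when respiration fails, was at 103 and 115 TPM, 31.01 ± 0.577-fold under Atp5b. Of the complex V factors, Atpaf1, which binds the beta subunit, was at 38.35 and 37.61 and Atpaf2, which binds the alpha subunit, at 15.7 and 17.4 TPM. Of the complex III factors, Uqcc2 was at 120.1 and 131 TPM, Uqcc1, its partner in cytochrome b synthesis, at 93.3 and 103, and Uqcc3 at 20.3 and 21.7. Bcs1l, which inserts the Rieske protein, was at 12.5 and 11.8 TPM, 37.8 ± 2.57-fold under Uqcrfs1. The complex II factors included the lowest members of the group. Sdhaf4, which binds flavinated Sdha, was at 33.4 and 30.9 TPM and Sdhaf2, which helps to attach the flavin, at 28.5 and 29.9. Sdhaf1 and Sdhaf3, which help Sdhb gain its iron-sulfur clusters, were at 4.93 and 4.79 and at 1.73 and 1.63 TPM, and Sdhb exceeded Sdhaf1 by 102 ± 7.69-fold.

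Related genes outside the symbol rule were read from fixed lists. The 5 further assembly factors stood in the same range as those above: Fmc1, a complex V factor, at 98.0 ± 5.40 TPM, Tmem70, which helps to build the c ring, at 45.2 ± 0.742, Hccs, which attaches haem to cytochrome c, at 23.7 ± 1.19, and the complex III factors Ttc19 and Lyrm7 at 16.4 ± 0.318 and 14.3 ± 0.707. Of the carriers that feed ATP synthase, the ADP/ATP carrier Slc25a4 was at 1989 ± 119.98 TPM and the phosphate carrier Slc25a3 at 999 ± 48.6, both within the range of the subunits. The second ADP/ATP carrier Slc25a5, at 164 ± 9.53, was below 28 of the 29 subunits. Mitochondrial creatine kinase (Ckmt2) was at 988 ± 13.0 and cyclophilin D (Ppif) at 108 ± 2.72. Of the genes linked to the release and action of cytochrome c in apoptosis, 4 stood near or below the 8.68 TPM median of detected genes. Bax was at 8.83 ± 1.53 TPM, Bak1 at 6.19 ± 0.396, Casp9 at 2.85 ± 0.0354 and Apaf1 at 2.06 ± 0.0990.

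Which transcript carried a member's level also depended on the quantifier. Of 43 members with a value in both transcript tables, 30 had the same dominant transcript in both and 13 did not. Of the 38 with several annotated transcripts, 25 had the same dominant transcript and 13 did not. The other members have no alternative transcript annotated, so their agreement was fixed in advance. No share over all genes is given here to set beside these counts or those between mice. The dominant transcript was the same in both mice for 43 members with the first quantifier and 42 with the second, including those without alternatives. It was a protein-coding one for 39 members with the first and 36 with the second. The median share of TPM on protein-coding transcripts was 99.1% and 90.4%. With the first quantifier Atp5j had 93.3 ± 0.296% of its TPM on Atp5j-208, annotated as a retained intron, and 5.57% on coding transcripts. With the second it had 76.8% on coding transcripts, led by Atp5j-203. Uqcr11 went the other way, from 99.7% on coding transcripts to 0%, its dominant transcript changing from Uqcr11-201 to the processed transcript Uqcr11-202.

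Other members had part of their level on transcripts without a protein-coding label in both tables. Uqcrh had 36.1% of its TPM on coding transcripts with the first quantifier and 16.04% with the second, and Sdhaf2 had 35.5% and 38.3%, with Sdhaf2-206, annotated as a target of nonsense-mediated decay, dominant in both. Atp5f1 had 51.5% and 56.2%, with the decay target Atp5f1-203 at 47.5% and 43.3%, and Atp5b had 70.5% and 74.9%. In others the share differed more between quantifiers. Cyc1 had 90.3% and 27.4%, with Cyc1-202, also annotated as a decay target, dominant in the second. Atp5h had 85.4% and 44.7%, and Atp5l 98.7% and 44.2%. Uqcc1, with 19 annotated transcripts, had 11.5% and 64.4%. In Atp5g1, Atp5g3, Atp5mpl, Bcs1l and Atp5s the dominant transcript differed but was coding in both. Atp5g1 had 97.7% on Atp5g1-202 with the first quantifier and 99.7% on Atp5g1-203 with the second.

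**Figure D4:**
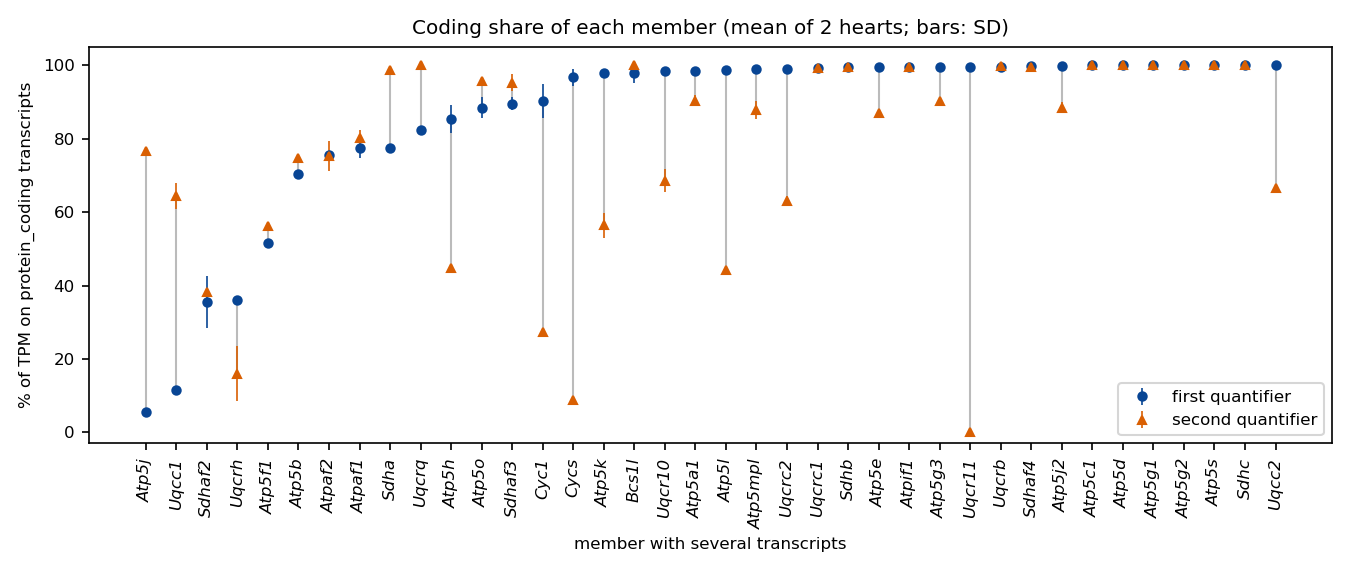
Share of each member's TPM on transcripts annotated as protein-coding, as mean and SD of 2 hearts, for members with several transcripts; circles are the first quantifier and triangles the second. Atp5j and Uqcc1 are low with the first only, and Uqcr11, Cycs and Cyc1 with the second only.

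Between the 2 hearts the members differed little. Ratios are of TMM-scaled expected counts, replicate 2 over replicate 1, for the 42 members with a mean count of at least 50. None of the 42 was 2-fold apart and none 1.5-fold apart. Of the 12454 genes tested, 0.369% lay 2-fold or more higher in replicate 1 and 0.201% in replicate 2, so a count of 0 among 42 is near this background. The log2 ratios ran from -0.22 in Atp5g2 to 0.10 in Atp5j2, with a median of 0.05 and an SD of 0.07, against a median of 0.01 and an SD of 0.31 over all genes tested. Members have more counts than most genes, and the spread over all genes includes genes with few counts.

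The direction was shared by most subunits. Of the 42 members 33 were above 0 in log2 ratio, higher in replicate 2, where 52.0% of all genes tested were. By role, 26 of 29 subunits and 5 of 11 assembly factors and inhibitors were above 0, with medians of 0.05 and 0.00. The exceptions among subunits were Atp5g2, Atp5e at -0.03 and Atp5mpl at -0.02. The size was small, with Atp5b at 0.06 (95% counting interval 0.05 to 0.07), Sdhc at 0.08 (0.05 to 0.12) and Atp5j2 at 0.10 (0.05 to 0.15). The intervals cover counting error only, and each mouse has 1 library, so no spread within a mouse can be given. Scaling by total count put 37 of the 42 above 0, against 67.5% of all genes, and scaling by spike-in total 41, against 87.9%. Marker genes of several cell types also differed between the hearts. Their values are in TPM and not in TMM-scaled counts. In TPM 7291 of 10948 detected nuclear protein-coding genes were higher in replicate 2 and 3590 lower. On the same scale 36 of the 44 members were higher and 7 lower. Of the 37 complex I subunits 36 were higher and 1 lower, and of the 18 cytochrome c oxidase subunits 15 and 1. The direction is therefore not particular to the members. Red cell genes, given above, were higher in replicate 1. In replicate 2 the 5 cardiomyocyte markers were each higher, with a summed level of 25652 TPM in replicate 1 and 28145 in replicate 2, and so were the 3 adipocyte markers, with sums of 3.81 and 11.8. Among the adipocyte markers Ucp1 was at 1.43 and 6.95 TPM. The sums of 3 markers each were 148 and 173 TPM for pericytes and smooth muscle (Acta2 at 36.3 and 51.2), 167 and 184 for fibroblasts, 118 and 120.3 for endothelial cells and 31.5 and 32.0 for macrophages. Within these sums Kdr (31.4 and 29.95), Col1a1 (21.1 and 19.6) and Csf1r (11.3 and 9.88) were lower in replicate 2, and the other markers higher. The part of these cell types in the shared direction was not tested.

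**Figure D5:**
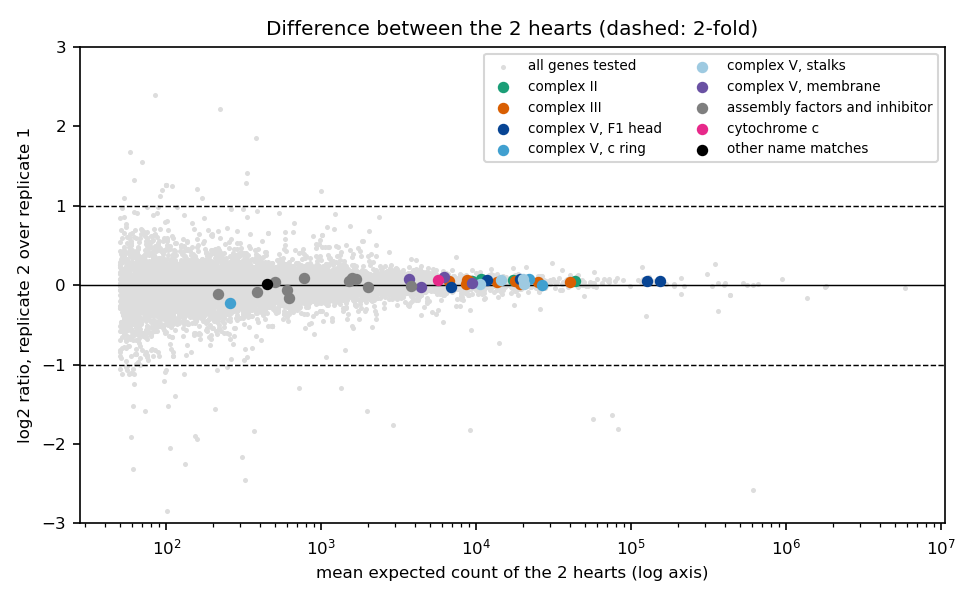
Log2 ratio of TMM-scaled counts, replicate 2 over replicate 1, against mean expected count on a log axis, with members coloured by role, all tested genes in grey and dashed lines at 2-fold. Members lie between -0.22 and 0.10, inside the spread of the 12454 genes tested.

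The stretches before the start sites were read for short motifs of factors known to drive mitochondrial genes in heart: NRF1, ETS factors of the GABP kind, the oestrogen-related receptors (ERR), YY1 and NF-Y. RefSeq windows on GRCm38.p6, 250 bases before to 50 after each start, were found for 36 of 43 member symbols, 2 of them under newer symbols, and were compared with 27025 gene symbols and with 8619 nuclear protein-coding genes at 1 TPM in both mice. The NRF1 motif CGCANGCG, on either strand, occurred in 20 of 36 members (55.6%), against 9.22% of all and 20.3% of detected genes. The ERR motif AAGGTCA occurred in 7 (19.4%), against 5.38% and 3.77%. The ETS motif CCGGAAG occurred in 13 (36.1%), against 9.93% and 21.1%. AAGATGGC, for YY1, occurred in 5 (13.9%), against 3.19% and 5.55%, and CCAAT, for NF-Y, in 20 (55.6%), against 41.1% and 43.0%. Matches of different motifs overlapped in 0 cases. Median GC content of the windows was 58.7% in members, 61% in detected genes and 52.7% in all. Some genes have several windows, and a match is a description of letters, not of binding.

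Windows of 100 bases from 3 genes are shown with the NRF1 and ERR matches in capitals, all on the minus strand of GRCm38.p6 and ending before both the RefSeq and the GENCODE start: Atp5g3 (chr2:73911327-73911426), with an ERR match, Cycs (chr6:50566570-50566669), with an NRF1 match, and Sdha (chr13:74350281-74350380), with 2 NRF1 matches. They were chosen as a subunit c gene, the somatic cytochrome c gene and the member with most NRF1 matches before its start, Sdha. Sdha was therefore picked for its matches. Both motifs occurred in 5 members, Atp5g3, Atp5k, Atp5l, Atpif1 and Sdhd.
Atp5g3: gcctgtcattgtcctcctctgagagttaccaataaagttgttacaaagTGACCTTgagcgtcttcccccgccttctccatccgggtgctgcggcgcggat
Cycs: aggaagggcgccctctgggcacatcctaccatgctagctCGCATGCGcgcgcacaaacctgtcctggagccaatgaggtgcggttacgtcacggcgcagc
Sdha: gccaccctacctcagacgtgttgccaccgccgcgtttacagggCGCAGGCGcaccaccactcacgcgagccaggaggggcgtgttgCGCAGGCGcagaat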

How the data were processed

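The authors deposited, for each heart, a gene table and a transcript table with expected counts and TPM, and a second transcript table with estimated counts and TPM from another quantifier, per the file headers; they used build mm10 with GENCODE M21, per the labels and file descriptions. Which aligner and quantifiers were run, and whether strand was used, was not given in the sources used here. Reads of 12 members with exons opposite another gene could therefore mix; the opposite gene reached 10% of the member's TPM in 1 case, Cpsf7 against Sdhaf2. The hybrid mice carry CAST alleles, whose effect on levels was not tested. TPM of the second table was summed per gene. Expected counts were rounded and scaled with edgeR 4.0.16 TMM factors (R 4.3.3), with a prior count of 0.5. Alternative scalings were spike-ins, the total count and DESeq2 1.42.0 size factors. Counting error is given by 95% Clopper-Pearson intervals. Python 3.11.15 with pandas 2.3.3 computed the rest. Per the rule for named genes, values are given for every subunit and for members far apart between mice, quantifiers or dominant transcripts. The members and lists were chosen with earlier results of these data known. In the list of apoptosis genes, 1 gene is not reported here.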

Additional observations from a re-analysis of the deposited data

How the results depend on the processing

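No paired analysis was possible because the labels give 1 group, with no second group to pair the replicate numbers with. With the second quantifier the median level was 413 TPM for complex II, 874 for complex III, 1011 for complex V and 36.5 for assembly factors and inhibitors. With TPM rescaled over nuclear protein-coding genes alone, which raises each value by construction, the same medians were 1232, 1540.2, 1629 and 74.8 TPM. With near-identical copies added, an alternative chosen after seeing the data, the complex V median was 678 TPM, the members' share 6.10% and the subunit c shares 47.1%, 9.63% and 43.2% for Atp5g1, Atp5g2 and Atp5g3. The members' share was 6.09% with the second quantifier and 2.78% in expected counts. The subunit c shares of Atp5g1 and Atp5g2 were 39.0% and 10.6% with the second quantifier, and those of Atp5g1 and Atp5g3 were 45.0% and 54.4% in expected counts. Without the minimum count 1 member, Cyct, was 2-fold apart between mice; the other settings run for this count gave 0. Leaving out each replicate gave medians of 458 to 504 TPM for complex II, 579.7 to 623 for complex III, 623 to 649 for complex V and 28.5 to 29.9 for assembly factors and inhibitors. It gave a members' share of 5.59% to 5.88%, and subunit c shares of 49.1% to 50.5% for Atp5g1, 0.438% to 0.527% for Atp5g2 and 49.1% to 50.4% for Atp5g3. Of the 44 single levels, 12 were counted as moved by over 1.5-fold with the second quantifier, and 39 were higher with it. Both counts include the read-through entry, which has no defined ratio because it is at 0 in the gene table. The share of all genes moved in either direction was not computed. Of the 40 members at 10 TPM or more, 10 were at least 1.5-fold higher with the second quantifier, against 12.3% of 4953 such genes. Most detected nuclear protein-coding genes were also higher with it, with a median ratio of 1.15. Members at few counts, such as Cyct, are limited by depth.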

Other observations

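Usmg5, a small membrane subunit of ATP synthase whose symbol falls outside the rule and which was chosen after its values were seen, was at 915 and 954 TPM in replicates 1 and 2, above 12 of the 16 complex V genes by the gene table, and at 568 ± 21.02 TPM with the second quantifier.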
